A study of Danio rerio with 10 samples.

Results

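The shortest informative reads of TransTag libraries were examined, those of only 8 to 19 bases. TransTag is an assay that reads outward from the end of a Tol2 transgene, and each deposited line is 1 read, called a flank. All reads of 8 to 19 bases were taken as deposited, with no adapter trimming, which gave 12299 of 182203 reads in 10 libraries, or 6.75%. A start was defined as the first 20 bases of longer reads, where 10 or more reads of the same library shared them. Each short read was then assigned to the start of which it was the beginning, with at most 1 edit.

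All libraries were made from genomic DNA of adult tail fin, with 1 library per genotype. The 9 transgenic libraries came from Tg(h2ax:h2az2a-mCherry)mw3, called H2A.Z-mCherry here, from a compound line with mitfa:mCherry and crestin:EGFP, from Tg(sox10:Kaede)zf393, and from 6 QUAS lines. The QUAS lines were c636 (QUAS:mApple-CAAX with he1.1:mCherry), c787 (QUAS:mApple with he1.1:CFP), c403 (QUAS:GFP), c594 (QUAS:GCaMP7a), c635 (QUAS:GFP with cmlc:GFP) and c591 (QUAS:GFP-CAAX). The last library came from a wild-type genotype with no transgene. No source used here gives the number of fish behind each library. Differences between libraries have no replicate check, and all intervals below are exact 95% intervals that cover counting error only, because reads are PCR copies.

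Tol2 is a DNA transposon of the medaka fish, and a transgene placed between its ends can be inserted into a zebrafish chromosome, where a few bases of the target are duplicated. QUAS is the sequence that the fungal activator QF binds, so that a QUAS transgene is switched on where QF is made. Tn5 is a bacterial transposase that cuts DNA and joins an adapter to the cut. A molecule cut close to the Tol2 end leaves only a few bases of flank before the adapter. Whether each end described below is such a cut was not tested. Chromosome positions were not analysed here, since no genome sequence was used.

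The starts to which the short reads belonged are shown first, because every value below refers to them. A single flank was found in the wild type and in all 9 transgenic libraries and is called the shared flank. The wild type has no transgene, and whether the shared flank lies beside one in the other libraries was not tested. Another 8 starts had their highest count of longer reads in 1 transgenic library and are called own flanks. They cover 7 libraries, with 2 of them in the compound line (flanks A and B), while c403 and c591 had none by this count. As a share of longer reads, flank B was higher in c787 (4.11%) and c403 (3.90%) than in the compound line (2.82%), with overlapping intervals. The sox10:Kaede flank was 0.837% in the wild type, from 2 of 239 reads, and 0.304% in sox10:Kaede, again with overlapping intervals. In each start a capital marks the last base before an end that held 10% or more of that flank's short reads, for the shared flank in the wild type and for the own flanks in their own library. All were read from the deposited files, from 5′ to 3′ in the direction of the read.
H2A.Z-mCherry flank: tcgccagGGaactGagaTCg
compound flank A: ctgatccagaATgtaacaTa
compound flank B: gacatgaacaaaCaCagaga
sox10:Kaede flank: cacctgaTCaaactaaTtGa
c636 flank: gtgagttgaattttCaatcc
c787 flank: aatttacatgcccCaggCtg
c594 flank: gtattatcCttcaattttta
c635 flank: atatgatgtaggaatGtgca
shared flank: tcaagaaCtcctggaCaaac

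Short reads made up very different parts of the libraries. They were most frequent in c594, with 561 of 1266 reads or 44.3% (41.6 to 47.1%), in c787, with 367 of 1060 or 34.6% (31.8 to 37.6%), and in c403, with 206 of 618 or 33.3% (29.6 to 37.2%). These are 3 of the 6 QUAS lines, and their intervals lie above those of all other libraries. The c635 library had 63 of 343 (18.4%), H2A.Z-mCherry had 193 of 1323 (14.6%), c636 had 231 of 1596 (14.5%) and c591 had 1006 of 9658 (10.4%). The sox10:Kaede library had 9026 of 149234 (6.05%) and the compound line 626 of 16835 (3.72%). The wild type had 20 of 270, or 7.41% (4.58 to 11.2%). With each distinct sequence counted once, the share was 23.7% in c787, 18.8% in c403 and 10.3% in c594, so that c594 was no longer highest. The 3 deepest libraries, sox10:Kaede, the compound line and c591, all lay at or below 10.4%, but so did the shallowest, the wild type. The part of depth in these shares was not tested.

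**Figure D1:**
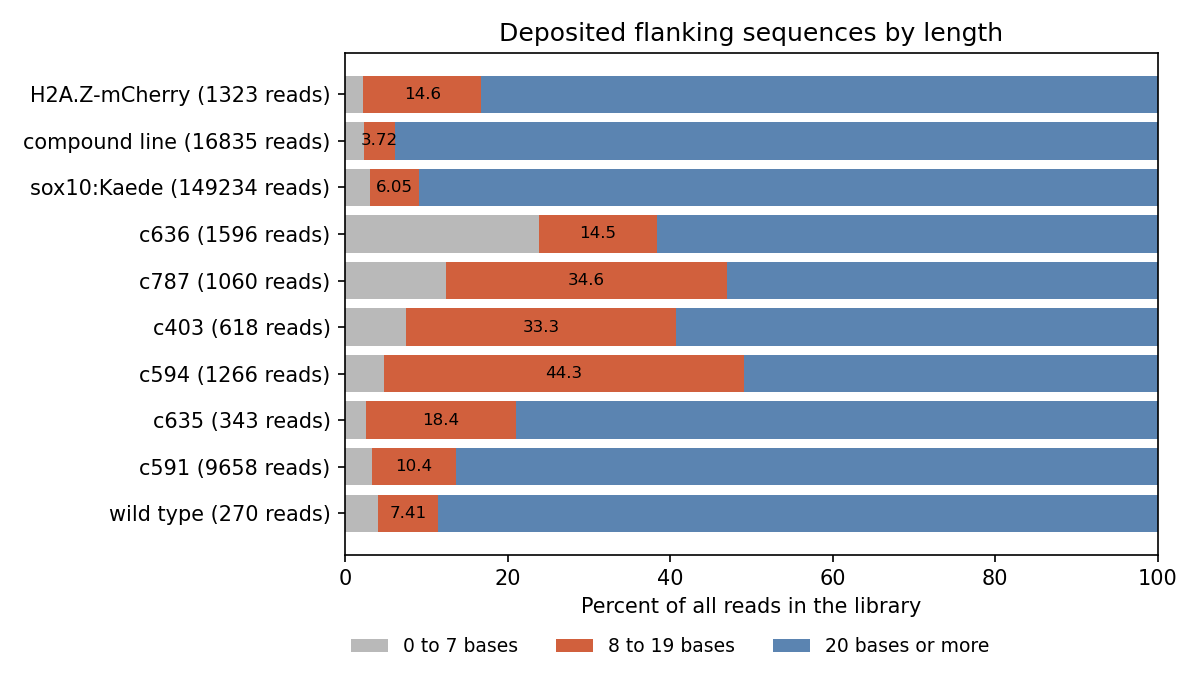
Reads of each library by length, in percent of all its reads, with grey for 0 to 7 bases, orange for 8 to 19 bases (the percentage is printed) and blue for 20 bases or more. The c594, c787 and c403 libraries have the widest orange bars, at 44.3%, 34.6% and 33.3%, and c636 has the widest grey bar, at 23.9%.

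The short reads were few sequences repeated many times. The number of distinct short sequences was 4 in the wild type, between 7 and 29 in 8 of the transgenic libraries, and 213 in sox10:Kaede. At the lower edge of the length window, 4922 reads were 8 bases long and 159 were 7 bases long over all libraries. At the upper edge, 98 reads were 19 bases long and 739 were 20 bases long.

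Nearly all short reads began like a flank that the same library also held in longer reads. Of the 12299 short reads, 11966 (97.3%) were the exact beginning of such a start and 231 (1.88%) differed by 1 edit. The remaining 102 reads matched no start. A further difficulty arose in sox10:Kaede, where 13 starts, carried by 267 longer reads, were the first bases of the shared flank followed by Tn5 adapter that had not been removed. As a result 3529 short reads of that library, 3526 of them 8 bases long, began both the shared flank and such an adapter start, and were left unassigned in the main count. With these reads given to the more frequent start, the assigned part of sox10:Kaede was 99.8%, against 60.7% without them. In the other libraries it was 81.8% in c636 and between 97.1% and 100% elsewhere.

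The short reads were then sorted by flank, to ask which flank ended early in each library. Own flanks led the short reads in 3 libraries, although over distinct sequences or over 12 to 19 bases the c594 flank was only level with the shared flank. In H2A.Z-mCherry the own flank had 187 of 193 assigned short reads, in c594 it had 452 of 560 and in c787 it had 243 of 362. The shared flank led in the other 7, with 177 of 189 in c636, 36 of 62 in c635, 64.8% of 622 in the compound line, 5411 of 5481 in sox10:Kaede (8940 of 9010 with ties given), 202 of 202 in c403, 977 of 977 in c591 and 20 of 20 in the wild type.

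Set against the longer reads of the same library, 6 of 8 own flanks took a higher share of short reads, 1 took a lower share, and 1 did not differ beyond its interval. The totals of longer reads include starts with 0 short reads. In c787 the larger ones were a start taken to be the end of Tol2 (46 of 560) and compound flank B (23 of 560). The shared flank of c787 had 32.9% of short reads (28.1 to 38.0%) and 35.7% of longer ones (31.7 to 39.8%), intervals that overlap. Those starts drop out when each own flank is compared with the shared flank alone, by the part of its reads that were short. By that count 5 of 8 own flanks were higher and 1 was lower. In c787 and c635 the intervals overlapped, so the c787 flank was not higher beyond its interval there. For c787 this holds for the main setting only. With 0 edits allowed, 44.7% of its own flank and 24.2% of its shared flank were short. The largest gain in percentage points was in c594, where the own flank had 80.7% of assigned short reads (77.2 to 83.9%) and 28.3% of longer reads (24.8 to 32.0%). Compound flank B had 26.2% of short reads (22.8 to 29.8%) and 2.82% of longer ones (2.57 to 3.09%), a ratio of 9.29. Compound flank A had 9.0% of short reads (6.87 to 11.5%) and 3.02% of longer ones (2.76 to 3.30%). In short reads flank B thus had 163 reads and flank A 56, while in longer reads the 2 flanks had 446 and 477.

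The H2A.Z-mCherry flank had 96.9% of short reads (93.4 to 98.9%) and 86.5% of longer ones (84.3 to 88.4%). The c787 flank had 67.1% of short reads (62.0 to 71.9%) and 51.2% of longer ones (47.0 to 55.5%). The sox10:Kaede flank had 1.28% of short reads (0.997 to 1.61%) and 0.304% of longer ones (0.276 to 0.335%). With the tied reads given to the shared flank its share of short reads was 0.777% (0.606 to 0.981%), still above that of longer reads. The c635 flank had 41.9% of short reads (29.5 to 55.2%) and 42.4% of longer ones (36.4 to 48.6%), intervals that overlap. The exception in direction was c636, whose own flank had 6.35% of short reads (3.32 to 10.8%) and 80.3% of longer ones (77.6 to 82.7%).

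**Figure D2:**
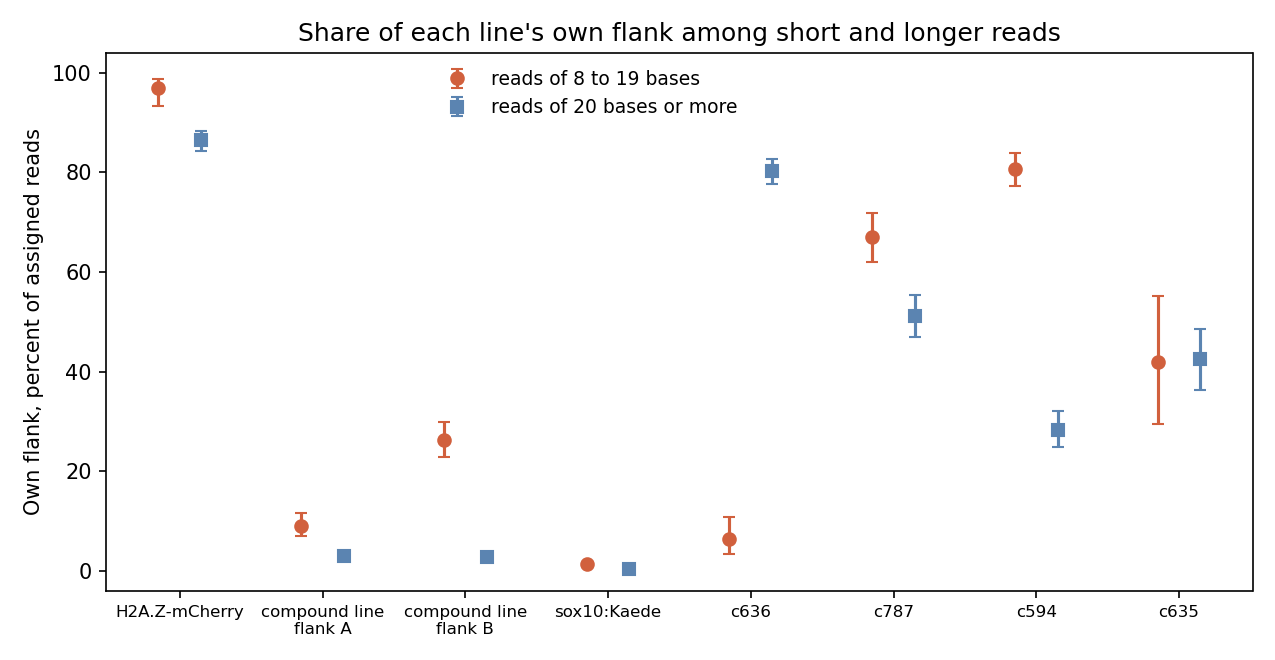
Share of each own flank among assigned reads of 8 to 19 bases (orange circles) and among reads of 20 bases or more (blue squares) of its library, in percent, with exact 95% intervals as bars. The orange circle lies above the blue square for H2A.Z-mCherry, both compound flanks, sox10:Kaede, c787 and c594, and far below it for c636 (6.35% and 80.3%).

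The same reads can be counted within each flank, as the part of a flank's reads that were short. The c594 flank was short in 452 of 632 reads, or 71.5% (67.8 to 75.0%), against 108 of 562, or 19.2% (16 to 22.7%), of the shared flank in that library. Over distinct sequences these values were 15% and 8.33%. The H2A.Z-mCherry flank was short in 16.4% of its reads (14.3 to 18.7%), against 4.41% (1.64 to 9.36%) of the shared flank, from 6 of 136 reads. Over distinct sequences these values were closer, at 9.52% and 7.41%. In the compound line flank B was short in 26.8% (23.3 to 30.5%) and flank A in 10.5% (8.03 to 13.4%), against 2.64% (2.39 to 2.91%) of the shared flank. The sox10:Kaede flank was short in 14.5% (11.5 to 18%), against 3.88% (3.78 to 3.98%) of the shared flank, or 6.25% with ties given. For c787 the values were 45.8% (41.5 to 50.2%) of the own flank and 37.3% (32.0 to 42.9%) of the shared flank, and for c635 they were 18.8% (12.7 to 26.4%) and 19.6% (14.1 to 26.0%). In both of these the intervals overlap. For c787 the gap was wider with 0 edits allowed, at 44.7% of the own flank and 24.2% of the shared flank. The latter lies below its main interval. Over 12 to 19 bases the c787 values were 45.4% and 17.7%, and over distinct sequences they were 28.1% and 19.4%. Intervals were not computed for these settings.

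In c636 the order was turned round, with 12 of 789 reads of the own flank short, or 1.52% (0.788 to 2.64%), against 177 of 350, or 50.6% (45.2 to 55.9%), of the shared flank. Over distinct sequences the values were 1.54% and 20%. The own flank of c636 did end early, but below the 8 bases that the description starts from. Reads equal to its first 6 bases numbered 241, those equal to its first 5 bases 71 and those equal to its first 7 bases 7. Compared with the 12 reads of 8 to 19 bases, these 319 reads are the larger number. In compound flank A 80 reads of 5 to 7 bases stood just outside the window, 74 of them of 7 bases, against 56 inside it. The c787 flank had 39 reads just outside the window, all of 7 bases, against 243 inside it. The H2A.Z-mCherry flank had 26 reads of 5 to 7 bases, against 187 inside the window. The c594, c635 and sox10:Kaede flanks and compound flank B had 0 reads of 5 to 7 bases that equal their beginnings.

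The part of the shared flank that was short itself differed between libraries. It was 50.6% in c636, 37.3% in c787 and 37.3% in c403, then 19.6% in c635, 19.2% in c594 and 10.6% in c591. In sox10:Kaede it was 3.88% (6.25% with ties given), in H2A.Z-mCherry 4.41% and in the compound line 2.64%. The wild type had 20 of 254 reads short, or 7.87% (4.88 to 11.9%).

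The ends of the shared flank recurred at the same places in every library. Of 12 possible lengths, 8 and 16 bases were found in all 10 libraries, each in 2 or more reads. The first corresponds to the read tcaagaaC and the second to tcaagaactcctggaC, or to these with 1 edit. In c787, 44 of the 76 reads of 8 bases had A for C at position 2. In c636, 26 of the 87 reads of 16 bases had that change. Together these 2 lengths held 6 of 6 short reads of the shared flank in H2A.Z-mCherry, 36 of 36 in c635, 168 of 177 in c636 and 112 of 119 in c787. They held 893 of 977 in c591, 165 of 202 in c403, 71 of 108 in c594 and 69.7% in the compound line. In sox10:Kaede they held 7561 of 8940 with ties given, and in the wild type 18 of 20. No other length inside the window was found in more than 5 libraries. Just outside it, shared-flank reads of 5 bases numbered 1646 in sox10:Kaede, 101 in c591, 91 in the compound line and 33 in c787. The wild type had 6 and H2A.Z-mCherry 2, and c636, c403, c594 and c635 had 0. Reads of 6 bases numbered 555 in sox10:Kaede, 35 in c591 and 25 in the compound line. There were 23 in c594, 9 in c635 and 1 in the wild type, and 0 in H2A.Z-mCherry, c636, c787 and c403. The end at 8 bases rests on assigning reads within their own library. When starts of any library were allowed, reads of 8 bases tied with the adapter starts of sox10:Kaede, and those left at 8 bases were 1.41% of short shared-flank reads in the compound line (47.9% within the library), 51.1% in c787 (63.9%) and 0 in c635 (58.3%).

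The balance between the 2 lengths was not the same everywhere. In c594 there were 10 reads of 8 bases and 61 of 16 bases, and in c403 there were 47 and 118. In the compound line the order was the opposite, with 193 reads of 8 bases and 88 of 16, and in c787 likewise with 76 and 36. The counts were near equal in c636 (81 and 87), c591 (428 and 465) and sox10:Kaede (3902 and 3659 with ties given). The c635 library had 21 and 15, H2A.Z-mCherry 4 and 2, and the wild type 7 and 11. The shortest length counted is 8 bases, so the first of these ends lies on the edge of the window.

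Lengths between and beyond these were seen in some libraries. The c594 library had 37 shared-flank reads of 10 bases, or 34.3% of its short reads of that flank, and only the compound line (25) and sox10:Kaede (353) also had that length. Reads of 9 bases numbered 47 in the compound line, 263 in sox10:Kaede with ties given, 17 in c403, 70 in c591 and 1 in the wild type. Reads of 12, 14 and 15 bases of the shared flank were found only in sox10:Kaede, the deepest library, with 8, 34 and 10 reads. Each of these lengths held 0.380% or less of the short shared-flank reads there, with ties given. The c591 library had 977 short shared-flank reads and 0 at each of these lengths. Whether the other libraries were deep enough to show them was not tested.

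**Figure D3:**
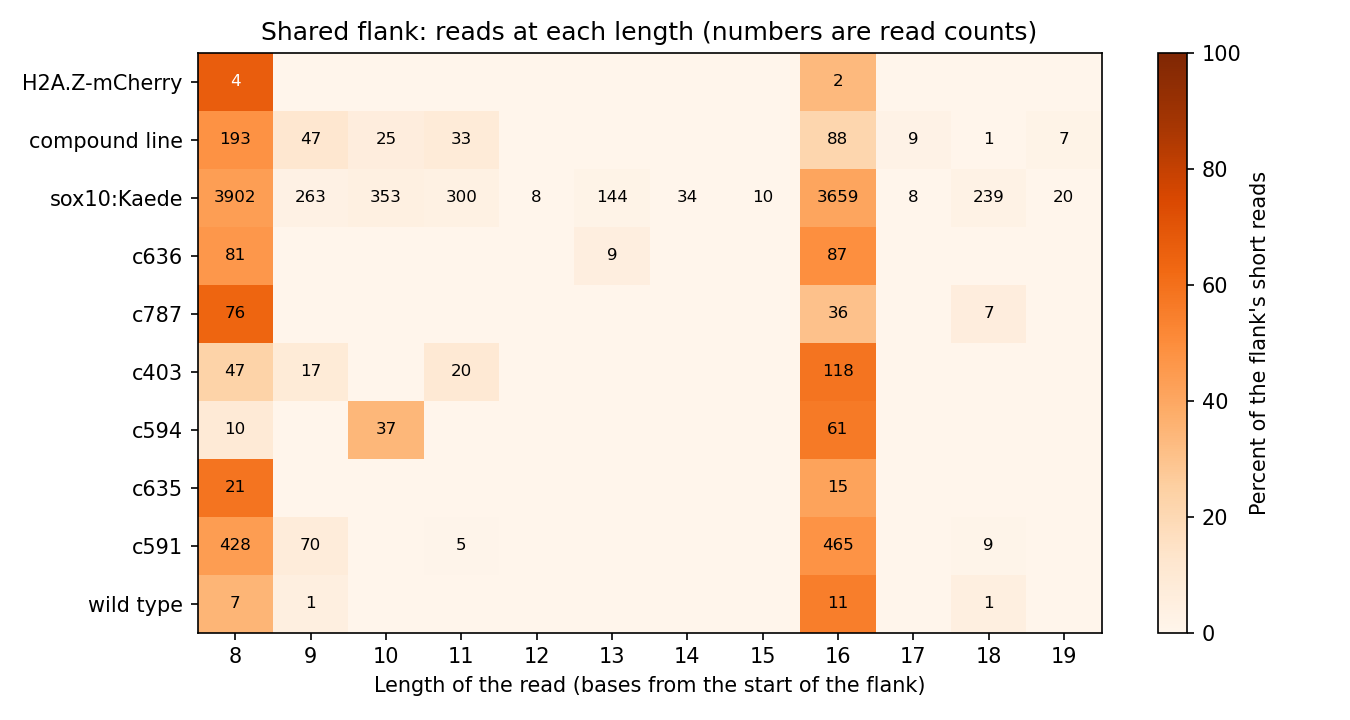
Shared flank, with libraries down the page and read length from 8 to 19 bases across. Colour gives the percent of that library's short shared-flank reads at each length and the number gives the reads, with tied reads of sox10:Kaede given to this flank. The columns at 8 and 16 bases are filled in all 10 libraries, with 7 and 11 reads in the wild type.

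Each own flank had its own set of ends. Counts at each length include reads with 1 edit, so the read printed for an end also stands for those. The c594 flank was dominated by 1 of them, since 354 of 452 short reads, or 78.3% (74.2 to 82.0%), stopped after 9 bases as gtattatcC. That single end held 56.0% of all reads of the flank, short and longer together. Other ends of this flank were at 8 bases (37 reads), 12 (12 reads), 15 (27 reads) and 17 (22 reads). Its start is the poorest in G and C of the 9, with 4 of 20 bases.

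The c787 flank ended mostly after 18 bases, in 161 of 243 short reads or 66.3% (59.9 to 72.2%), as aatttacatgccccaggC. It also ended at 14 bases (28 reads), 17 (24 reads), 12 (13 reads), 13 (13 reads) and 8 (4 reads). Together, 5 of its 6 ends inside the window lay between 12 and 18 bases. Just outside the window, 39 reads equalled its first 7 bases.

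Compound flank B stopped after 15 bases in 120 of 163 short reads, or 73.6% (66.2 to 80.2%), as gacatgaacaaacaC, and after 13 bases in 29. Flank A was spread more widely. It had 21 of 56 short reads at 11 bases, 19 at 19 bases and 6 at 12 bases, and its commonest end held 37.5% (24.9 to 51.5%). Both flanks were read in the same library, so this difference lies within 1 preparation, but it holds only for the window. Just outside it, flank A had 74 reads of 7 bases, more than at any length inside, and flank B had 0 reads of 5 to 7 bases.

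The H2A.Z-mCherry flank had the most even spread. Its 187 short reads lay at 18 bases (44 reads), 14 (39 reads), 8 (33 reads), 19 (33 reads) and 9 (30 reads), with 7 reads at 12 and 1 at 11. The commonest end held 23.5% (17.6 to 30.3%). The sox10:Kaede flank was similar, with 20 of 70 reads at 9 bases, 19 at 19, 15 at 17, 12 at 8 and 4 at 14. Its commonest end held 28.6% (18.4 to 40.6%).

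At the other extreme stood c635 and c636, where all short reads of the own flank had 1 length. In c635 all 26 were 16 bases long (100%, 86.8 to 100%), as atatgatgtaggaatG or this with 1 edit. In c636 all 12 were 15 bases long (100%, 73.5 to 100%), as gtgagttgaattttC or this with 1 edit. For c636 this holds only inside the window, since its flank also had 71 reads of 5 bases, 241 of 6 and 7 of 7. The c635 flank had 0 reads of 5 to 7 bases. From how many molecules reads of 1 length came cannot be read from these files. The c635 end at 16 bases is at the same distance as an end of the shared flank, which in that library had 15 reads there.

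**Figure D4:**
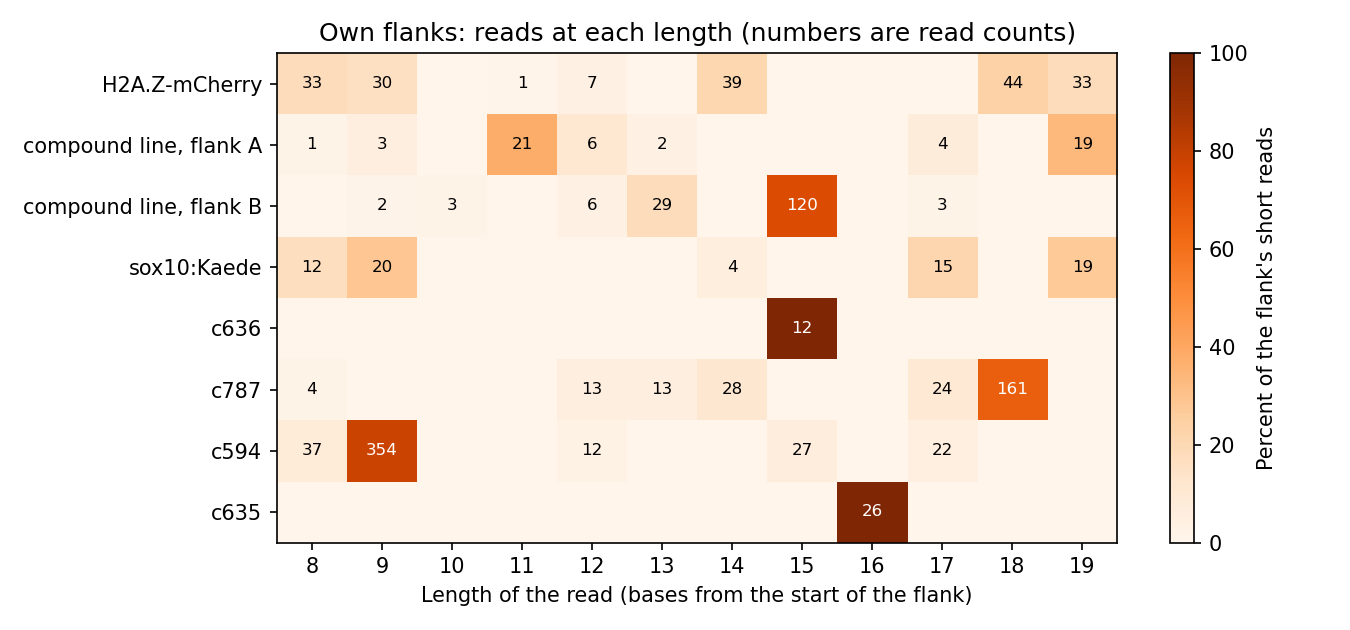
Own flanks, 1 per row, with read length from 8 to 19 bases across. Colour gives the percent of the flank's short reads at each length and the number gives the reads. The c635 and c636 flanks fill a single cell, c594 has 354 of 452 reads at 9 bases, and the H2A.Z-mCherry flank is spread over 7 lengths. Reads below 8 bases, such as 241 of 6 bases of the c636 flank, are not shown.

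The bases at the ends were compared with all places where a read could have ended. Counting each flank and length once, 23 different ends held 10% or more of a flank's short reads. Own flanks could pass only in their own library, but the shared flank in any library with 10 or more of its short reads. Its end at 9 bases passed only in the compound line (11.7%) and its end at 10 bases only in c594 (34.3%). Neither is marked in the printed start. The last base before the end was C in 11 of the 23 (47.8%), T in 6, G in 5 and A in 1. Over all 108 possible end places of the 9 starts, C was the last base in 21.3% and A in 34.3%. The next base of the flank, which the read did not reach, was A in 10 of 23 ends (43.5%), against 36.1% of all places. These counts are small and the starts few, so they are given as a description.

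Reads that differed from their start by 1 edit were not spread evenly. Of the 231 such reads, 103 (44.6%) lay in 4 sets of 10 or more identical reads, 1 in each of 4 libraries, that carried the same change, C2A in the shared flank (positions counted from 1 at the first base of the flank). The reads were tAaagaac in c787 and c591 and tAaagaactcctggac in c636 and c403, with the changed base in capitals. Among reads that equal the shared flank at positions 1 and 3 to 8, C2A was found in 44 of 75 reads of 8 bases in c787, or 58.7% (46.7 to 69.9%). In the same library it was found in 0 of 26 reads of 16 bases and in 0 of 196 reads of 20 bases or more.

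In c636 the pattern was at the other length. There C2A was carried by 26 of 84 reads of 16 bases, or 31.0% (21.3 to 42.0%), by 0 of 79 reads of 8 bases and by 4 of 167 longer reads (2.40%). In c403 it was carried by 16 of 117 reads of 16 bases, or 13.7% (8.02 to 21.3%), by 0 of 45 reads of 8 bases and by 1 of 319 longer reads. In c591 it was carried by 17 of 417 reads of 8 bases, or 4.08% (2.39 to 6.45%), by 3 of 452 reads of 16 bases and by 7 of 8058 longer reads. These 4 libraries were chosen because each held 10 or more identical reads with C2A, so a concentration at 1 length follows in part from that choice. In sox10:Kaede C2A was found in 4 of 3528 reads of 8 bases, 10 of 1033 of 9 to 15 bases (0.968%, 0.465 to 1.77%), 6 of 3504 of 16 bases and 311 of 127809 longer reads (0.243%). In c594 and c635 it was found in 0 reads of 8 or 16 bases and in 3 of 441 and 2 of 139 longer reads. The wild type had 0 of 7, 0 of 11 and 0 of 232.

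**Figure D5:**
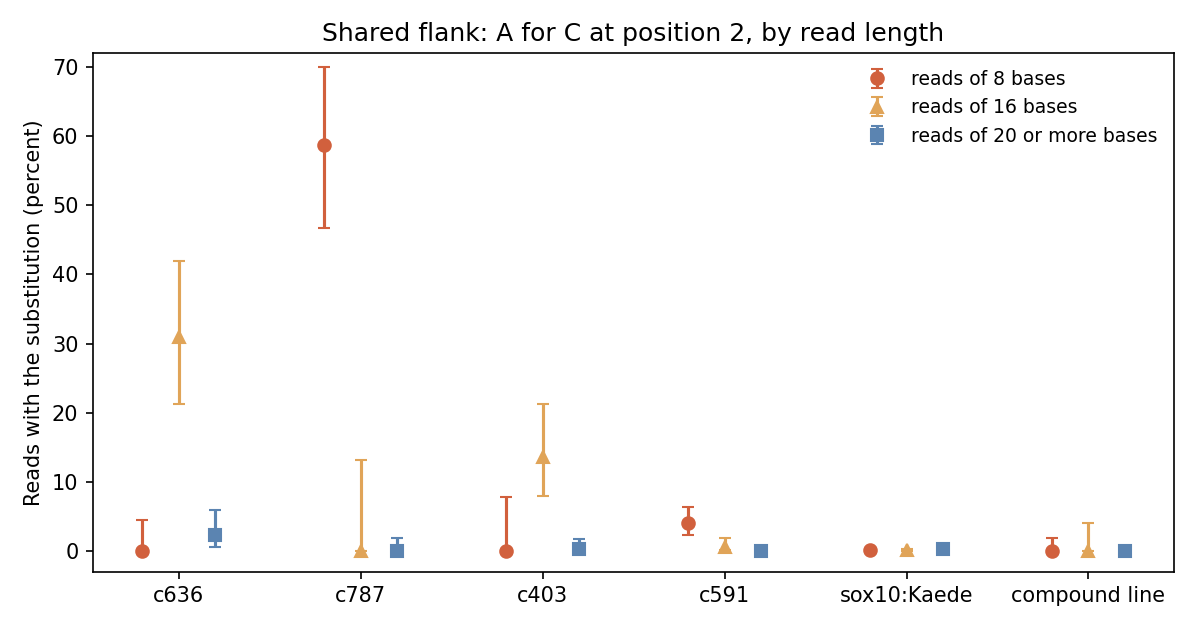
Percent of shared-flank reads with C2A among reads of 8 bases (orange circles), 16 bases (yellow triangles) and 20 bases or more (blue squares) in 6 libraries, with exact 95% intervals. Among the libraries plotted, the circle is above 10% only in c787 (58.7%), and the triangle only in c636 (31.0%) and c403 (13.7%).

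The 102 unassigned reads were mostly of 1 start. In c636, 35 reads of 8 bases and 6 of 18 bases, and in c591, 27 reads of 8 bases, lay within 2 edits of 1 other start, which had 7 longer reads in c636 and 1 in c591, fewer than the 10 required. Its longer reads were taken to run into sequence from beside the origin of pUC plasmids, an identity not tested here. The start is not printed. In c403, c594 and c635 the same start had 6, 3 and 7 longer reads, and none of their unassigned short reads lay within 2 edits of it. Of the others, 4 reads, in the compound line, matched the reverse strand of the Tn5 adapter.

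A few unassigned short reads began like the own flank of another library. In sox10:Kaede 10 reads of 17 bases began like the H2A.Z-mCherry flank, a length at which that flank had 0 short reads in its own library. In c403 2 reads of 14 bases and 1 of 13 began like the c787 flank, at lengths that also occurred in c787. In c591 2 reads of 16 bases began like the c635 flank, which had all of its short reads at that length in c635. Another read, in c636, began like the c787 flank at 18 bases, its commonest length in c787.

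Some starts had longer reads and 0 short ones. A start taken to be the end of Tol2 itself, an identity not tested here, had 249 longer reads in 6 libraries. It had 0 reads of 8 to 19 bases, which allows up to 1.20% of the 249. Compound flank B had 23 longer reads in c787, 16 in c636 and 14 in c403, and 0 short reads in each. A count of 0 allows up to 13%, 18.8% and 21.4% of those longer reads. On the total of short and longer reads, the exact intervals reached 14.8%, 20.6% and 23.2%. On that total 26.8% (23.3 to 30.5%) of the reads of flank B were short in its own library. Over distinct sequences that value was 15.4%.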

How the data were processed

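DNA of adult tail fin was read in 10 libraries, 1 per genotype. In the files deposited by the authors each line is a flanking sequence, with neither counts nor coordinates. Identical lines repeat, so lines were counted as reads. No source used here gives the anchor, trimming, filters, aligner or build. Members and tests were chosen with earlier results of these data known.

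Short reads were compared with starts in edlib 1.3.9.post1 (Python 3.11.15), the whole read against the best beginning of each start. The fewest edits won, and reads tied between families were left out. Starts within 4 edits of a more frequent start formed 1 family. Intervals are exact 95% Clopper-Pearson intervals (scipy 1.17.1). The limit for a count of 0 is 3 counts of the total. Assignment was tested on simulated reads of unrelated random starts, none of which ran into adapter. Ties such as those in sox10:Kaede were thus not covered by that test. No test was run across libraries, since any batch and the genotype cannot be told apart with 1 library each. Depth ran from 270 to 149234 reads. For 20 wild-type short reads, a start of up to 15% could be missed. In 1 alternative, adapter (19 bases read from the files, which match the Tn5 mosaic end, at most 3 edits) was removed. Descriptions cover the shared flank, own flanks, any family with 10 short reads, and ends with 10% of a flank's short reads.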

Additional observations from a re-analysis of the deposited data

Results flagged for a closer look

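The share of reads of 0 to 7 bases, which lie outside the length window, had an interval wholly above that of the wild type in c636 and c787. They were 23.9% of reads in c636 (21.8 to 26.0%) and 12.4% in c787 (10.4 to 14.5%), against 4.07% in the wild type (2.05 to 7.17%). The c403 library had 7.44% (5.50 to 9.80%), an interval that overlaps that of the wild type. In c636, 241 of these 381 reads were the first 6 bases of the c636 flank. In c787, 39 of 131 were the first 7 bases of the c787 flank, and another 39 were 3 bases long and began only compound flank B among the named starts.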

How the results depend on the processing

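Of 664 values of 73 results under 12 alternative settings, 495 moved by less than their interval and 169 by more. The share of short reads moved beyond its interval in 9 libraries with a wider window and in 9 with distinct sequences. With 0 to 19 bases it was 38.3% in c636, 47.0% in c787, 40.8% in c403, 49.1% in c594, 13.7% in c591, 6.08% in the compound line, 16.8% in H2A.Z-mCherry, 9.15% in sox10:Kaede and 11.5% in the wild type. With each distinct sequence counted once it was 7.98% in c636, 23.7% in c787, 18.8% in c403, 4.95% in c591, 10.3% in c594, 8.97% in c635, 4.30% in the compound line, 8.55% in H2A.Z-mCherry and 1.27% in sox10:Kaede. With reads of 8 bases or more as the total it was 6.24% in sox10:Kaede, 19% in c636 and 39.5% in c787, and with residual adapter removed 6.71% in sox10:Kaede. The share of the own flank among assigned short reads, with starts of any library allowed, was 98.9% for H2A.Z-mCherry, 13% for compound flank A, 37.7% for flank B, 73.0% for c787 and 61.9% for c635. Over 12 to 19 bases it was 53.7% for flank B, 0.913% for sox10:Kaede, 11.1% for c636, 84.8% for c787, 50% for c594 and 63.4% for c635. Over distinct sequences it was 80% for H2A.Z-mCherry, 25% for flank A, 7.5% for sox10:Kaede, 18.2% for c636 and 50% for c594. With 0 edits it was 78.4% for c787. For sox10:Kaede it was 1.75% with starts of 3 or more reads, 0.731% with adapter removed, and 0.777% both with ties given and with starts that run into adapter left out, the last of these chosen after seeing the data. The cause of these moves was not tested. The library's leading flank changed under 3 of these settings. Over 12 to 19 bases the own flank of c635 and compound flank B led, while in c594 own and shared flanks had 61 reads each of 122. Over distinct sequences the c594 flanks had 6 each of 12 and those of c635 3 each of 6. With starts of any library allowed, the c635 flank led. The short part of the c594 flank was 25.3% over 12 to 19 bases and 15% over distinct sequences, against 11.8% and 8.33% of the shared flank there. In c787 the short part of the shared flank was 24.2% with 0 edits, against 44.7% of the own flank. No paired analysis was possible because each genotype has 1 library. With 20 and 63 short reads, the wild type and c635 could miss starts of up to 15% and 4.76% of short reads.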
